A study of Mus musculus with 20 samples.

Results

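The SOCS and PIM genes described here are 6 of the 13798 genes in the deposited expression table: Socs1, Socs2, Socs3 and Cish, which encode suppressors of cytokine signaling, and Pim1 and Pim2, which encode serine/threonine kinases. They were chosen by name, as the best known genes of these 2 families that cytokine receptors switch on through STAT transcription factors, and all 6 were found in the table. Each was followed across 28192 single cells from the spleens of 10 bone marrow chimeras, by mouse, by T cell cluster and by condition.

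All 10 chimeras were C57BL/6 mice that had been irradiated, reconstituted with congenic bone marrow and killed 10 weeks after irradiation. The 5 WT chimeras received WT marrow and were immunized with NP-OVA in alum at week 6, a hapten coupled to ovalbumin that raises germinal centers against a foreign antigen. The 5 564Igi chimeras received WT marrow mixed with marrow of 564Igi mice, whose B cells carry the knocked-in heavy and light chain genes of 1 self-reactive antibody that binds RNA and protein complexes, and for these the labels give no immunization. The study's methods also describe a later booster of NP-OVA for immunized chimeras, which the labels do not mention. Marrow, immunization and the nature of the antigen therefore differed together between the 2 conditions and cannot be told apart. In both, CD4+CXCR5+PD1+ cells were sorted by flow cytometry from the CD45.2+CD45.1- compartment, a gate set on T cells. Each condition held male and female chimeras.

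Cytokines such as IL-2, IL-6, IL-21 and the interferons bind paired receptor chains that carry Janus kinases. The kinases phosphorylate STAT proteins, which move to the nucleus and turn on, among many genes, those of the SOCS family. SOCS1 and SOCS3 bind and inhibit Janus kinases or receptor chains, CIS (the product of Cish) and SOCS2 occupy receptor chains, and the SOCS box of each recruits a ubiquitin ligase, so that the pathway limits itself. PIM kinases are induced through the same STAT proteins and favor survival, growth and translation. In follicular T cells these signals matter because IL-6 and IL-21 favor follicular helper T (TFH) cells, while IL-2 acting through STAT5 restrains TFH cells and sustains Foxp3+ regulatory T cells, the lineage of follicular regulatory T (TFR) cells.

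In the GRCm38 annotation (GENCODE vM21), Socs1 lies at chr16:10782240-10785536 on the minus strand, Socs2 at chr10:95385362-95417180 on the minus strand and Socs3 at chr11:117966079-117970047 on the minus strand. Cish lies at chr9:107296026-107302784 on the plus strand, Pim1 at chr17:29490753-29496112 on the plus strand and Pim2 at chrX:7878262-7883432 on the plus strand. STAT proteins bind DNA as dimers at a palindrome that can be written TTCNNNGAA, which reads the same on both strands, and this was searched in 300-base windows around RefSeq gene starts (GRCm38.p6, 250 bases before to 50 after the start). Of 32851 such windows, 2726 (8.3%) held the letters and 150 (0.457%) held them at least 2 times. The 5 members with a window (Socs2 had none, and Pim1 had 2 alternative starts) gave 6 windows, of which those of Cish and Socs3 held a match. The Cish window held 2 matches side by side, the first of them beginning at the RefSeq start base, within a 5′ untranslated exon of the GENCODE annotation. The Socs3 window held 1 match, which began 154 bases before the RefSeq start and lay within a GENCODE transcript but outside its exons. Both stretches of 30 bases are shown 5′ to 3′ on the strand of the gene, because they are the places in these windows where the letters of a STAT palindrome occur, with the fixed letters of each match in capitals. The Cish stretch is chr9:107296654-107296683 on the plus strand and the Socs3 stretch is chr11:117969501-117969530 on the minus strand.
Cish: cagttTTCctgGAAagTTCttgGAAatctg
Socs3: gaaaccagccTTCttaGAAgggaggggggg
A match of letters is a description of the sequence, and no binding was measured in these cells. No match was found in the windows of Socs1, Pim1 and Pim2, which says only that these letters are not in those 300 bases.

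The sorted cells were checked against their label. Averaged over mice, Cd3e was found in 99.4% of cells, Cd4 in 67.3%, Pdcd1 (encoding PD-1) in 75.6%, Icos in 65.0%, Cxcr5 in 40.7% and Bcl6, the transcription factor of TFH cells, in 10.9%. The authors' 6 clusters held 11953 activated TFH cells, 11650 TFR cells, 2803 Sostdc1 TFH cells, 725 central memory TFH cells, 682 effector TFH cells and 379 interferon stimulated TFH cells. Markers were highest in the cluster they name for 5 of the 6: Foxp3 was found in 56.0% of TFR cells against 7.20% of activated TFH cells, Ccl5 in 76.1% of effector cells, Ifit1 in 89.4% of interferon stimulated cells, Sostdc1 in 100% of Sostdc1 cells and Sox4 in 66.9% of central memory cells. The 3 markers of activated TFH cells did not single out that cluster: Tnfsf8 was found in 63.5% of its cells and 77.0% of Sostdc1 cells, Klf2 in 31.1% and in 57.5% of central memory cells, and S100a6 in 76.3% and in 74.7% of Sostdc1 cells. The authors' name is kept for it here. Markers of other cell types were low, and the 2 conditions overlapped in them. The 3 B cell markers used had Cd79b as the most abundant in every mouse, and their summed mean corrected count per cell was 0.0330 to 0.0615. The 5 myeloid markers summed to between 0.0294 and 0.252, with Lyz2 the most abundant in 4 mice and Cd68 in 6. The part of such RNA in the values of the 6 genes was not tested.

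The number of cells per mouse was 1890 to 4030 in WT and 1121 to 3120 in 564Igi chimeras, and the median number of unique molecular identifiers (UMIs, counted RNA molecules) per cell was 2937.5 to 3823.5 and 2728 to 4375.5, respectively (2-sided exact permutation p = 0.857). The deposited values are UMI counts corrected by a regression fitted to each condition on its own, so that a difference in how the 2 regressions scaled a gene cannot be told apart from a difference between conditions. The corrected totals per cell averaged 3529 ± 113 (SD) over WT mice and 3632 ± 163 over 564Igi mice, n = 5 each (exact permutation p = 0.278). Libraries of WT mouse 36 and 564Igi mouse 34 were numbered apart from the others in the labels, and 491 barcode sequences occurred in more than 1 library, in 988 cells. 564Igi mouse 13 stood apart from the rest: it had the highest Pim1 and Socs3 levels of all 10 mice and the highest mean corrected count of Junb, an immediate early gene that also responds to tissue handling (2.98, against 1.35 to 2.54 in the others). For Socs1, Socs3 and Pim1, the differences between conditions in all cells and in TFR cells are given with and without mouse 13.

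All 6 genes were low in single cells. Of the cells in which a member was found, 55.3% to 82.2% held a single corrected UMI of it, so that a cell without a UMI cannot be called a cell without the transcript, and levels were averaged over the cells of a mouse. Values are given on 2 scales: the percentage of cells with at least 1 UMI, and the mean over cells of log2(corrected count + 1). For comparison with genes of another cell type, the B cell genes Ms4a1, Cd79a and Cd79b were found in 0.0431%, 0.224% and 3.98% of cells in WT mice and in 0.0677%, 0.282% and 3.05% in 564Igi mice. Cd79b was not even over the clusters, with 5.46% of TFR cells and 2.15% of activated TFH cells. Socs2, found in 2.18% of cells on average over mice, lay within the range of these 3 genes, so its share cannot be told apart from such a background. The same limit holds for the Socs2 values given below, for which no background share was measured.

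Among the 4 SOCS family genes, Socs1 had its highest level in interferon stimulated TFH cells and its lowest in central memory TFH cells. It was found in 49.9% of interferon stimulated cells, 41.8% of Sostdc1 cells, 32.1% of activated cells, 27.4% of TFR cells, 20.3% of effector cells and 15.3% of central memory cells. In mean log2 level the interferon stimulated cluster stood above the Sostdc1 cluster in 7 of 8 mice with enough cells of both, by 0.24 ± 0.23 (SD), and Sostdc1 cells stood above activated cells in 9 of 10 mice, by 0.12 ± 0.069 (SD). Activated cells stood above TFR cells in 9 of 10 mice, by 0.051 ± 0.045 (SD), and TFR above effector cells in 9 of 10, so most mice kept the order of neighbors. The difference between effector and central memory cells, 0.067 ± 0.087 (SD, n = 8), was smaller than its spread. The clusters were made from the same expression values, so these orders are a description and carry no test.

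Socs3, the suppressor tied most closely to IL-6 family receptors, was also highest in interferon stimulated cells, where it was found in 13% of cells. Its levels in activated, effector and TFR cells were 0.117 ± 0.049, 0.115 ± 0.090 and 0.111 ± 0.041 on the log2 scale (SD, n = 10) and could not be ordered: activated exceeded TFR cells in 6 of 10 mice. Sostdc1 cells, at 0.068, lay below activated cells in all 10 mice. Socs2 was found in 3.0% of activated cells and 1.89% of TFR cells, and in 0 of 693 central memory cells of the 8 mice with at least 20 of them, which by counting error alone allows up to 0.433% of such cells to hold a UMI and says nothing of cells with the transcript but no UMI.

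Cish and Pim1 shared the TFR cluster as their highest. Cish, whose product docks on IL-2 family receptor chains, was found in 12% of TFR cells, 6.98% of interferon stimulated cells, 6.08% of effector cells, 4.0% of activated cells, 2.24% of central memory cells and 1.25% of Sostdc1 cells. The B cell gene Cd79b was found in 2.89% of central memory and 1.53% of Sostdc1 cells. The Cish shares at this end of the order therefore cannot be told apart from such a background. Single mice departed from this order: mouse 17 had Cish in 20.9% of interferon stimulated against 14.5% of TFR cells, and mouse 34 in 8.57% of effector against 7.08% of TFR cells. In TFR cells its share ran from 7.08% in the lowest mouse over a median of 14.1% to 15.1% in the highest, and in activated cells from 2.0% over 3.1% to 7.09%, so that the 2 clusters overlapped slightly across mice. Within each mouse TFR cells were higher in 10 of 10, by 0.10 ± 0.029 (SD) on the log2 scale. Pim1 was found in 49.6% of TFR and 28.9% of activated cells, and its level in TFR cells exceeded that in every other cluster in every mouse that had both, by 0.38 ± 0.048 (SD, n = 10) over activated cells and by 0.26 ± 0.14 (SD, n = 8) over interferon stimulated cells. Pim2 showed no such pattern. Its levels in the 6 clusters lay between 0.134 and 0.184 on the log2 scale, and neighbors in that order were the higher in 4 to 6 of 8 to 10 mice.

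**Figure D1:**
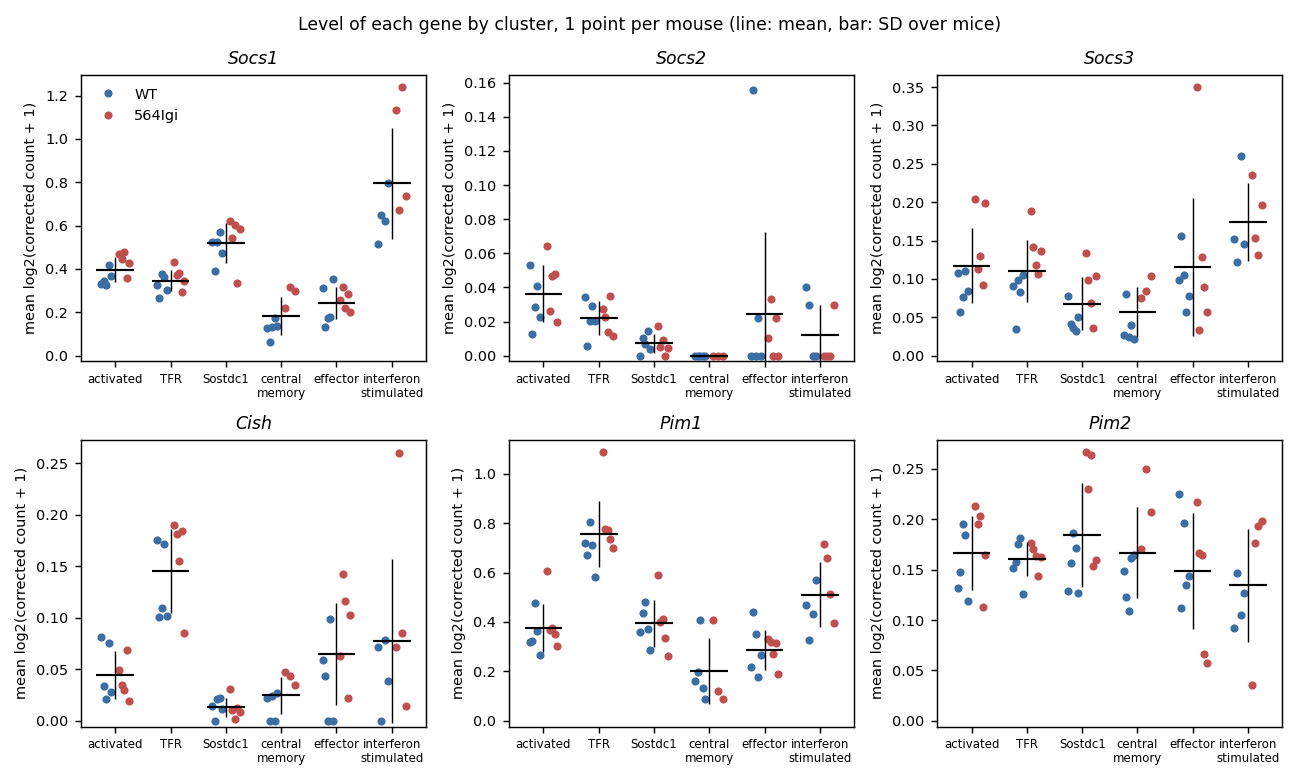
Mean log2(corrected count + 1) of each gene in the 6 clusters, 1 point per mouse with at least 20 cells of the cluster (vertical axis, log2 units), with the mean and SD over mice. Cish and Pim1 stand highest in TFR cells, Socs1 in interferon stimulated cells, and Pim2 stays between 0.134 and 0.184 in cluster means.

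Within the TFR cluster the same genes divided along Il2ra, the gene of the high affinity IL-2 receptor chain CD25. A UMI of Il2ra was found in 1338 TFR cells, 66 to 218 per mouse. Cish was found in 29.7% ± 6.51 (SD, n = 10) of them and in 9.64% ± 2.59 of the other TFR cells. Among Il2ra+ cells the share ran from 19.7% over a median of 31.2% to 37.4%, and among the other cells from 5.10% over 10.8% to 12.7%. The 2 sets of values, from the same 10 mice, did not overlap. Socs2 followed, with 6.42% against 1.24%, and so did Pim1, with 61.3% against 48.1%, and Socs1, with 35.3% against 26.2%, each higher in Il2ra+ cells in 10 of 10 mice. Socs3 was found in 12.7% and 8.81%, higher in 8 of 10 mice, and Pim2 in 12.5% and 14%, higher in 4 of 10. The Il2ra+ cells had somewhat higher corrected totals, 3708 against 3552 per cell, and the part of that difference was not tested. The share of all genes that were higher in Il2ra+ cells in 10 of 10 mice was not measured, so these counts of mice are a description. In activated TFH cells only 261 cells held an Il2ra UMI, and Cish was found in 14.5% of them against 3.76% of the rest, higher in 9 of 10 mice. Socs2 was higher in these cells in 8 of 10 mice, Pim1 and Socs3 in 7, Socs1 in 6 and Pim2 in 5.

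**Figure D2:**
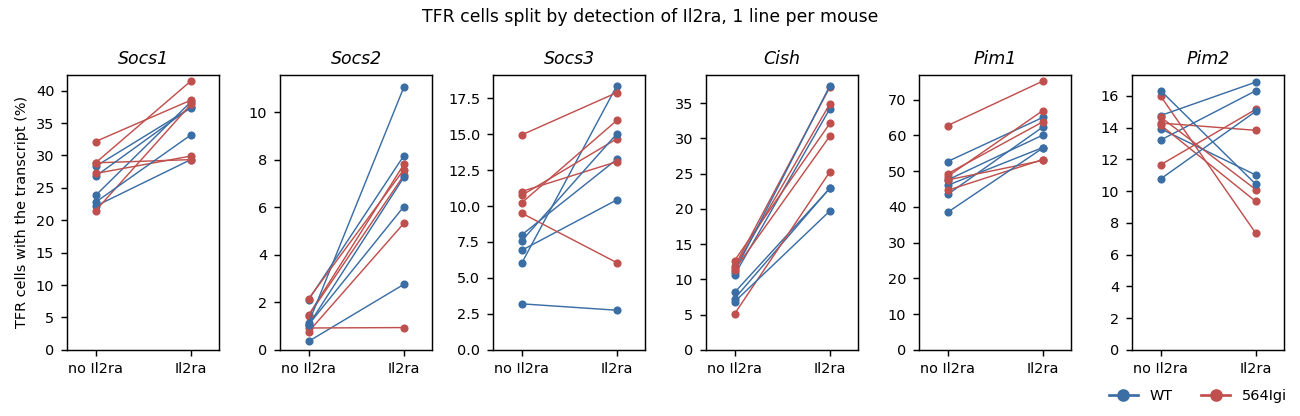
Percentage of TFR cells with at least 1 UMI of each gene (vertical axis), in cells with and without a UMI of Il2ra, with lines joining the 2 values of a mouse. Cish was found in 29.7% of Il2ra+ and 9.64% of the other cells on average, and Pim2 in 12.5% and 14%.

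Divided instead by Foxp3, the transcription factor of regulatory T cells, which was found in 6600 TFR cells, Cish was found in 14.8% of Foxp3+ cells against 8.53% of the others, Pim1 in 53.1% against 45.0%, Socs3 in 10.8% against 7.32% and Socs2 in 2.56% against 1.05%. All 4 were higher in Foxp3+ cells in 10 of 10 mice, and the share of all genes for which this held was not measured. Socs1, at 26.5% and 28.4%, was higher in 4 of 10 mice, and Pim2, at 12.8% and 15.2%, in 2 of 10. The clusters were made from the same expression values and the authors named the TFR cluster by Foxp3, so the splits describe the cells within a cluster and carry no test.

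The genes whose pattern lay closest to each member over 56 mouse-by-cluster means, out of 9969 genes, are given as a description, since the means share cells, libraries and clusters. For Cish they were Il2ra (Pearson r = 0.756), Rragd (0.753) and Glrx (0.728). For Pim1 they were Tnfrsf4 (0.893), which encodes OX40, Ncmap (0.888) and Tnfrsf18 (0.880), which encodes GITR. For Socs1 they were Cybb (0.898), Csta2 (0.852) and Ddx24 (0.833), and for Socs3 they were Tap2 (0.689), Sbno2 (0.650) and Tap1 (0.610), where Tap1 and Tap2 encode the peptide transporter of antigen presentation. The closest to Socs2 were Rccd1 (0.633), Sgsm3 (0.625) and Ercc5 (0.624), and to Pim2 Pafah1b3 (0.631), Hyou1 (0.605) and Qsox2 (0.592). Among the members themselves the highest values were those of Cish with Pim1 (0.634) and of Socs1 with Socs3 (0.381), while Pim2 gave between -0.079 and 0.051 with the other 5.

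In single TFR cells some members, but not Pim2 with Socs2, Socs3 or Cish, were found together more often than in cells without the partner. Cish was found in 40.9% of TFR cells with a UMI of Socs2 and in 11.4% of those without, and in 23.2% of cells with Socs3 against 11% of those without. Pim1 was found in 61.8% of cells with Cish against 48.0% without, and Socs3 in 12.7% of cells with Socs1 against 7.95% without. Each of these 4 shares was higher in cells with the partner in 10 of 10 mice. Pim2 was found in 12.6% of TFR cells with Socs2 against 13.9% without (higher in 4 of 10 mice), in 13.1% against 13.9% for Socs3 (3 of 10) and in 12.4% against 14.2% for Cish (3 of 10). In activated TFH cells Socs2 and Cish were again found together, Cish in 16.3% of cells with Socs2 against 3.61% without (higher in 9 of 10 mice), but Pim1 was found in 26.8% of cells with Socs1 against 29.9% without, lower in 10 of 10. Cells with more UMIs show any pair of genes together more often, and the part of depth in these shares was not tested. The share of all gene pairs found together more often in 10 of 10 mice was not measured.

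The comparison of 564Igi with WT chimeras asks whether these cytokine-induced genes differ between follicular T cells of mice with autoreactive B cells and those of mice immunized with a foreign antigen. No member passed the threshold (adjusted p below 0.01 and absolute log2 fold change above 0.2 in limma, over all tested genes) in any cluster or in all cells together. The fold change is a difference in mean log2(corrected count + 1), which is small for genes of low level. In all cells the WT means of Socs2 (0.023), Cish (0.079), Socs3 (0.080) and Pim2 (0.157) lay below 0.2. None of these could be called lower there, so the lack of calls says little about them. In all follicular T cells 1 of 9959 tested genes passed it (0.01%), and 318 had an unadjusted p below 0.05, of which 2 were members, Socs3 and Socs1. All 6 members were tested there. All 6 had a fold change above 0, against 38.4% of all tested genes, and their median was 0.038 against a median of -0.0018 over all genes. This count is given as a description.

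Socs3 was the member with the smallest p between conditions. It was found in 7.98% (mouse 11), 4.01% (mouse 12), 7.14% (mouse 14), 7.97% (mouse 23) and 6.92% (mouse 36) of all cells in WT chimeras. In 564Igi chimeras it was found in 15.5% (mouse 13), 9.81% (mouse 17), 10.0% (mouse 21), 7.85% (mouse 24) and 13.1% (mouse 34). Thus 4 of the 564Igi mice lay above every WT mouse and mouse 24 lay among them, with WT mouse 12 the lowest of all. The mean share was 6.81% ± 1.63 in WT mice against 11.3% ± 3.03 in 564Igi mice (SD, n = 5 each; exact permutation p = 0.0238). On the log2 scale the levels were 0.080 ± 0.020 and 0.137 ± 0.040 (SD, n = 5 each), a difference of 0.057 (SE 0.016, 95% interval 0.025 to 0.089), with an exact 2-sided permutation p of 0.0159. Its adjusted p in limma was 0.613, so adjusted over all genes the difference did not pass. The difference was 0.043 without mouse 13 and 0.053 without mice 34 and 36. With every cell thinned to 2800 corrected UMIs the shares were 5.64% ± 1.28 and 9.27% ± 2.48, with an exact permutation p of 0.00794, the smallest that the 252 assignments of 5 and 5 mice allow.

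Socs1, which restrains interferon and IL-2 family signals, was found in 27.9%, 25.1%, 29.0%, 31.5% and 28.5% of cells in WT mice 11, 12, 14, 23 and 36. In 564Igi mice 13, 17, 21, 24 and 34 it was found in 35.9%, 32.8%, 35.3%, 27.3% and 33.1%. Again 4 of the 564Igi mice lay above every WT mouse, and mouse 24 was within the WT range. The exact permutation p of these shares was 0.0556. The difference was 0.071 on the log2 scale (SE 0.026, 95% interval 0.020 to 0.12), with an exact permutation p of 0.0397 and an adjusted p of 1.0 in limma. It was 0.059 without mouse 13 and 0.072 without mice 34 and 36. Without the cells whose barcode occurred in more than 1 library the difference was 0.069 with an exact permutation p of 0.0556, while that of Socs3 was 0.057 with 0.00794.

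Pim1, Pim2, Cish and Socs2 overlapped widely between conditions. The Pim1 level in all cells was 0.48, 0.52, 0.60, 0.48 and 0.40 in WT mice 11, 12, 14, 23 and 36 and 0.83, 0.52, 0.52, 0.48 and 0.45 in 564Igi mice 13, 17, 21, 24 and 34, on the log2 scale. Mouse 13 stood alone, and the difference of 0.062 (SE 0.053, exact permutation p = 0.548) became -0.0044 without it. The differences of Pim2, Cish and Socs2 were 0.018, 0.0075 and 0.0047. With 1 mouse left out they ran from 0.010 to 0.030, from 0.00027 to 0.018 and from 0.0012 to 0.0081. The summed level of the 11 handling and immediate early genes in the table, given here because Fos (0.168, others 0.0375 to 0.106), Junb and Pim1 were all highest in mouse 13, was 5.31 ± 0.866 in WT against 5.56 ± 0.897 in 564Igi mice (exact permutation p = 0.627), with 6.92 in mouse 13. Mean mitochondrial share was 3.59% ± 0.133 in WT and 3.36% ± 0.285 in 564Igi mice (exact permutation p = 0.119, n = 5 each). The part of these measures in the members' values was not tested.

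**Figure D3:**
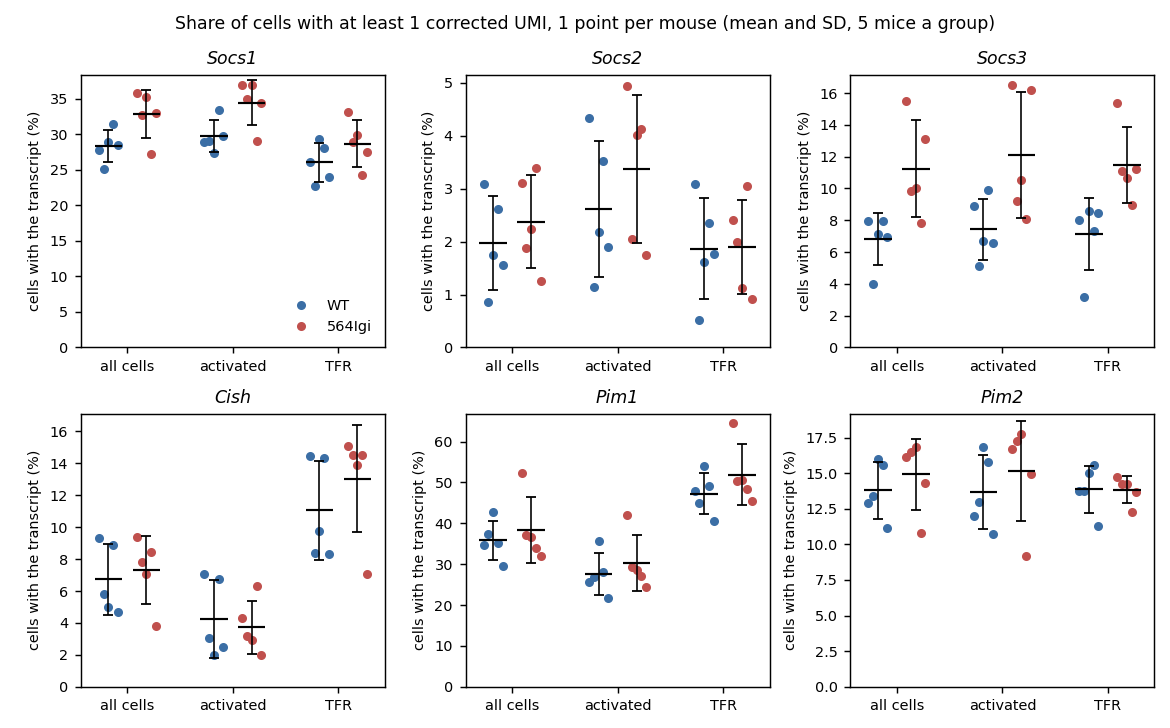
Percentage of cells with at least 1 UMI of each gene (vertical axis) in all follicular T cells, activated TFH cells and TFR cells, 1 point per mouse with the mean and SD of the 5 WT and the 5 564Igi chimeras. In all cells, for Socs3 and for Socs1, 4 of the 564Igi mice lie above every WT mouse, and mouse 13 stands apart for Pim1.

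Within TFR cells 2 of 9994 genes passed the threshold (0.02%), none of them a member, and 1 member had an unadjusted p below 0.05, as did 3.5% of all tested genes. This was Socs3, found in 8.03%, 3.17%, 8.57%, 7.35% and 8.45% of TFR cells in WT mice 11, 12, 14, 23 and 36 and in 15.4%, 11.1%, 10.7%, 8.93% and 11.2% in 564Igi mice 13, 17, 21, 24 and 34. The groups did not overlap, also on the log2 scale, where all 5 564Igi mice lay above every WT mouse for 1 of 6 members and for 0.38% of all tested genes. The difference was 0.056 (SE 0.016; 0.043 without mouse 13) with an exact permutation p of 0.00794, the smallest possible, and an adjusted p of 0.473. In the same cells all 8 tested handling and immediate early genes had fold changes above 0, with none past the threshold and a median of 0.018. Pim1 differed by 0.12 (SE 0.058, exact permutation p = 0.175), and by 0.047 without mouse 13. Socs1 differed by 0.036 (exact permutation p = 0.246), by 0.020 without mouse 13 and by 0.021 without WT mouse 12. Cish differed by 0.027, and by 0.046 without mouse 34. The groups overlapped for all 3 genes.

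In activated TFH cells 1 of 9859 genes passed (0.0101%), no member among them, and 2 members had an unadjusted p below 0.05, as did 3.99% of all tested genes. Socs1 differed by 0.079 (p = 0.00967, adjusted p = 0.956 in limma) and Socs3 by 0.060 (p = 0.00656, adjusted p = 0.956), each with an exact permutation p of 0.0317. Without mouse 13 these differences were 0.071 and 0.046. For no member did every 564Igi mouse lie above every WT mouse, as was so for 0.264% of all genes here and 0.261% in all cells. The difference of Socs3 was thus near 0.06 in activated as in TFR cells, and the difference between the 2 clusters' values was -0.0044 (SE 0.015, 95% interval -0.033 to 0.025).

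In Sostdc1 TFH cells, where Socs2 was too low to test, 2 of 9885 genes passed (0.0202%). Of the 5 members tested none passed and none was without overlap between the groups (0.334% of all genes). An unadjusted p below 0.05 was given to 2 of them and to 4.60% of all tested genes. Pim2 differed by 0.061 (p = 0.0268) and Socs3 by 0.040 (p = 0.0155), with exact permutation p-values of 0.0794 and 0.0714. In effector TFH cells 1 of 9637 genes passed (0.0104%) and no member had an unadjusted p below 0.05, against 5.22% of all tested genes. In the interferon stimulated cells of 4 WT and 4 564Igi mice 1 of 9419 genes passed (0.0106%). Socs1 there was 0.51, 0.65, 0.62 and 0.80 on the log2 scale in WT mice 11, 14, 23 and 36 and 1.13, 0.67, 1.24 and 0.74 in 564Igi mice 13, 17, 21 and 34. Mice 13 and 21 lay above all others and the rest overlapped, with a difference of 0.30 (SE 0.099, exact permutation p = 0.143, adjusted p = 0.998 in limma) that was 0.24 without mouse 13 and 0.20 without mouse 21.

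In central memory TFH cells, with 5 WT and 3 564Igi mice of at least 20 cells, none of 10351 genes passed (0%). An unadjusted p below 0.05 was given to 784 of them (7.57%), with 3 of the 5 tested members among them. Socs1 was 0.13, 0.065, 0.13, 0.18 and 0.14 on the log2 scale in WT mice 11, 12, 14, 23 and 36 and 0.22, 0.32 and 0.30 in 564Igi mice 13, 17 and 24. The groups did not overlap. The difference was 0.15 (SE 0.043, adjusted p = 0.359 in limma). On the log2 scale Cish and Pim2 also showed no overlap, with differences of 0.027 and 0.068. That makes 3 of the 5 members tested, against 3.19% of all genes. For each of these 3 the exact permutation p on the log2 scale was 0.0357, the smallest that 5 against 3 mice allow. As a share of cells Pim2 overlapped, with 14.3% in the lowest 564Igi and 15.8% in the highest WT mouse (exact permutation p = 0.107). The Cish values rest on 1, 3 and 1 cells with a UMI in 564Igi mice 13, 17 and 24 and on 0 to 3 cells in the WT mice. In the same 564Igi mice Socs1 rests on 4, 22 and 6 such cells, and Pim2 on 3, 19 and 6. In WT mice 12 and 14 Socs1 rests on 4 and 5 cells, and Pim2 on 7 and 4. This comparison rests on the fewest 564Igi mice of all those made.

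**Figure D4:**
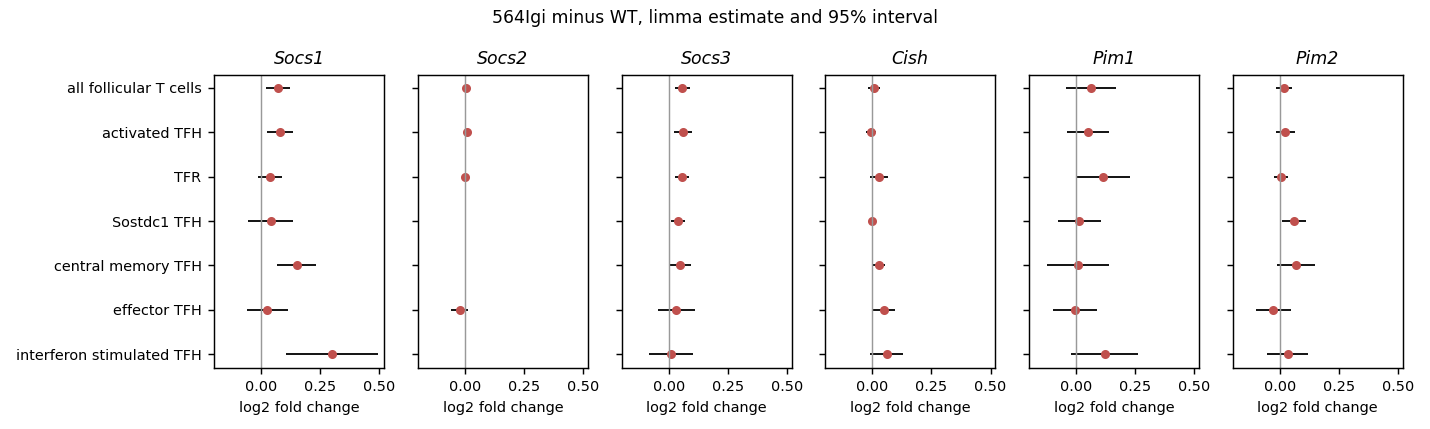
Difference between 564Igi and WT chimeras (horizontal axis, log2 units, 564Igi minus WT) for each gene in all cells and in each cluster, with 95% intervals from limma. Socs3 lies near 0.06 in all cells, activated TFH and TFR cells, and no interval belongs to a gene that passed the threshold.

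Whether the step from activated TFH to TFR cells differed between conditions was tested within each mouse. None of 9682 genes passed (0%), while 752 had an unadjusted p below 0.05, 2 of them members. Pim1 was higher in TFR than in activated cells by 0.35 ± 0.033 (SD) in the 5 WT and by 0.41 ± 0.039 in the 5 564Igi mice. The values ran from 0.31 to 0.40 and from 0.39 to 0.48, so that the groups overlapped at their edge. The difference of 0.065 (SE 0.022) had an exact permutation p of 0.0317 and an adjusted p of 0.458 in limma, and was 0.048 without mouse 13. For Cish the step was 0.084 ± 0.013 in WT and 0.12 ± 0.032 in 564Igi mice, a difference of 0.035 with an exact permutation p of 0.0714 and an adjusted p of 0.472. It was widest in the 564Igi mice, from 0.066 to 0.15, against 0.067 to 0.096 in WT.

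Clone size, read from the paired T cell receptor sequences and so apart from the expression values, gave a further comparison. In each mouse, cells of clonotypes with at least 5 cells were set against cells whose clonotype occurred once. In activated TFH cells this compared 4877 cells of 801 expanded clonotypes with 2416 singletons over 10 mice, and 22 of 9833 genes passed the threshold (0.224%). No member passed. An unadjusted p below 0.05 was given to 2 of the 6 members, Cish and Socs2, and to 23.5% of all tested genes, a share too high for the members' count to be read as a result. The Cish difference, expanded minus singleton, ran from -0.061 in the lowest mouse (24) over a median of -0.014 to 0.018 in the highest (17), and was below 0 in 8 of 10. Its mean levels were 0.0391 and 0.0554, with an exact sign-flip permutation p of 0.0371 and an adjusted p of 0.0812 in limma. With each clonotype weighted equally the mean difference was -0.0063 in place of -0.016. Socs2 lay the other way, at 0.0408 in expanded and 0.0268 in singleton cells, higher in 6 of 10 mice, with a sign-flip permutation p of 0.0684 and an adjusted p of 0.0847. Its mean difference of 0.014 was 0.0080 with each clonotype weighted equally.

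In TFR cells 3953 cells of 664 expanded clonotypes were set against 2972 singletons, and 10 of 9953 genes passed (0.1%), no member among them. An unadjusted p below 0.05 was given to 2 members, Socs1 and Pim2, and to 19.1% of all tested genes. Socs1 differed by -0.036, lower in expanded cells in 7 of 10 mice (exact sign-flip permutation p = 0.0566, adjusted p = 0.157 in limma), and Pim2 by -0.021, lower in 8 of 10 (p = 0.0273, adjusted p = 0.236, by the same permutation and limma). When each clonotype counted equally both had the other sign, at 0.031 and 0.032. In Sostdc1 TFH cells, with 377 expanded clonotypes and 340 singletons in 7 mice, 1 of 9735 genes passed (0.0103%), and none of the 4 members tested had an unadjusted p below 0.05.

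**Figure D5:**
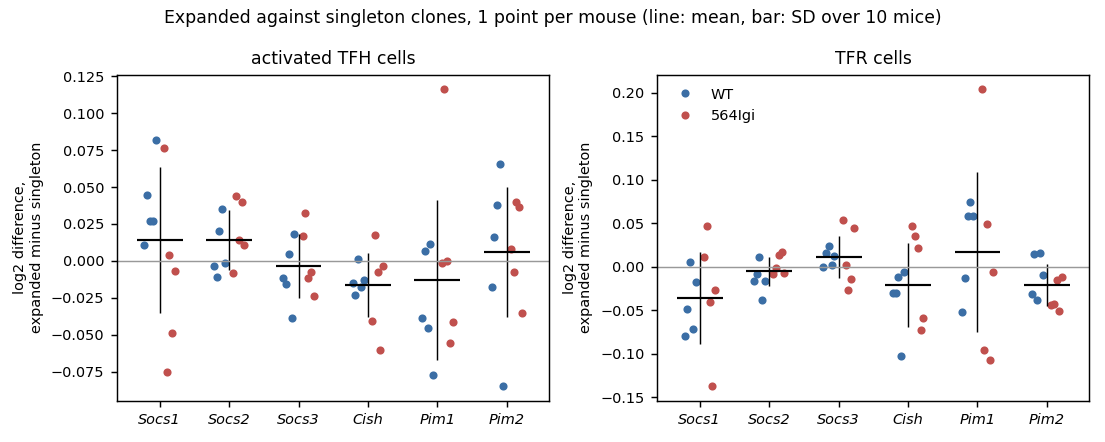
Difference in mean log2(corrected count + 1) between cells of expanded clonotypes (5 or more cells) and singletons (vertical axis, log2 units), 1 point per mouse, in activated TFH and TFR cells. Cish in activated TFH cells is below 0 in 8 of 10 mice, and 564Igi mouse 17 stands apart for Pim1.

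The other genes of the pathway were taken by role. The genes named from each list were picked for the largest absolute fold changes in all cells. Their differences between conditions are therefore a description and carry no test. Of the other cytokines in the list, which the T cells themselves can make, 5 of 7 could be tested in all cells, all 5 had fold changes above 0 between conditions and none passed. Il21, the cytokine of TFH cells that signals through STAT3, differed by 0.066 (SE 0.019, adjusted p = 0.613 in limma). Every 564Igi mouse (0.20 to 0.25) lay above every WT mouse (0.095 to 0.19), as was so for 0.261% of all tested genes. Ifng, encoding interferon γ, a strong inducer of Socs1, differed by 0.049 (adjusted p = 0.872 in limma). Of 18 receptor chains 17 were tested and 5 were above 0, the farthest from 0 being Il7r, the IL-7 receptor chain (-0.079), and Il2rg, the common γ chain (-0.078). Among the 4 Janus kinases, 2 were above 0, and Jak1 (-0.050) and Jak3 (0.046) differed most.

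Of the 7 STAT genes 4 were above 0 and none passed. Stat3, which carries IL-6 and IL-21 signals, differed by 0.076 (adjusted p = 0.9997 in limma), with 4 of 5 564Igi mice above every WT mouse. Among 9 other brakes on the pathway 4 were above 0, led by the phosphatase genes Ptpn1 (0.15, SE 0.051, adjusted p = 0.9997 in limma) and Ptpn11 (0.053). Ptpn11, which encodes SHP2, was the one gene of these lists that passed the threshold in any comparison: it rose in expanded against singleton activated TFH cells by 0.22 (SE 0.035, adjusted p = 0.000103 in limma). Il21 in the same comparison had a fold change of 0.14 with an adjusted p of 6.15e-07, under the fold change limit.

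Of the rest of the 2 families, Socs4, Socs5, Socs6, Socs7 and Pim3, 1 was above 0, and Socs5 (-0.0096) and Socs4 (-0.0066) lay farthest from 0. Of the 4 partners in the SOCS box ubiquitin ligase 3 were above 0, with Elob (0.082) and Rnf7 (0.028) farthest from 0. Of 10 other cytokine-induced genes 7 were above 0, with Batf and Bcl3 the farthest from 0. Batf, a transcription factor that TFH cells need, differed by 0.12 (adjusted p = 0.9997 in limma) and Bcl3 by 0.074. Of 5 genes whose proteins PIM kinases phosphorylate 2 were above 0, with Cdkn1b (-0.062), a cell cycle inhibitor, and Eif4ebp1 (0.013), a brake on translation, farthest from 0. Of the 8 tested handling and immediate early genes 5 were above 0, with Junb (0.072) and Ier2 (-0.037) farthest from 0. None of these genes passed the threshold between conditions.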

How the data were processed

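Per the labels, single-cell RNA and T cell receptor libraries (10x Genomics) were made from sorted splenic cells of 10 chimeras. The submitters' processing notes name Cell Ranger 4.0.0, GRCm38 and Seurat 3.1.4. The authors normalized each condition separately with sctransform, regressing out mitochondrial and ribosomal share, UMI number and a heat shock score. The deposited table holds the natural log of the corrected UMI count plus 1. A second deposited table holds UMI and gene counts, mitochondrial and ribosomal percent, the heat shock score, cluster and library of each cell, and another deposited table the receptor sequences. No column was left without a sample. No step for doublets is given in the sources used here, and none was added.

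Values were converted to log2(corrected count + 1) and averaged per mouse, using clusters with at least 20 cells in a mouse. The fit in limma 3.58.1 (R 4.3.3; trend) took genes with a UMI in 1% or more of the cells of enough mice to fill the smaller group, with Benjamini-Hochberg adjustment over all tested genes. A gene was called where its adjusted p was under 0.01 and its log2 fold change beyond 0.2 either way. Single values were tested by exact permutation of the mice (252 assignments for 5 against 5) or of signs (1024 patterns for 10 mice), with fewer of either where a cluster had fewer mice, 2-sided, in Python 3.11.15 with scipy 1.17.1. These permutation p-values are unadjusted. Between conditions they were computed for every member in all cells and in each cluster, on the log2 scale and on the shares of cells before and after thinning. Intervals are 1.96 SE either way, with the SE from limma, and are narrower than the moderated t test of limma would give. For Pim1 in TFR cells the interval of 0.0010 to 0.23 leaves out 0, while the limma p was 0.0616. The labels do not say which mice shared a litter or cage. The limma step was tested on simulated data in which only genes of higher level than most members were changed. That test does not show how well a change in genes as low as most members would be found. Members, lists and comparisons were chosen with earlier results of these data known. Named were the members, for each list the 2 genes of largest absolute fold change in all cells and any gene called, and for each member the 3 genes most correlated with it. Of the genes so picked, 1 is not reported here. Alternatives tried were no variance trend, no filter, a looser threshold, counts per 10000, other clone size limits, equal weight per clonotype, covariates for sex and heat shock score, and leaving out mice. Leaving out cells with a shared barcode was chosen after seeing the data.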

Additional observations from a re-analysis of the deposited data

Results flagged for a closer look

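In 9 of 95 groups of 4 to 10 mice examined, 1 mouse lay far from the others by Dixon's 95% limit, where chance gives about 5%. Of these, 3 were the Pim1 level of 564Igi mouse 13, which was the highest of its group in all cells (0.826, others 0.447 to 0.521), in TFR cells (1.09, others 0.700 to 0.775) and in activated TFH cells (0.605, others 0.303 to 0.374), all on the log2 scale. These 3 share cells. Junb and the summed handling genes were also highest in this mouse, and their part was not tested.

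Socs3 in all cells was low in WT mouse 12 (0.0441, others 0.0831 to 0.0934). Socs1 in Sostdc1 TFH cells was low in 564Igi mouse 24 (0.336, others 0.545 to 0.619), which had 82 such cells. The Pim1 difference between expanded and singleton activated TFH cells was 0.116 in 564Igi mouse 17, against -0.0770 to 0.0114 in the others. The remaining 3 rest on 1 to 3 cells with a UMI: Pim2 in the interferon stimulated cells of 564Igi mouse 13 (0.0357, others 0.176 to 0.198, 28 cells), Socs2 in the effector cells of WT mouse 12 (0.156, others 0 to 0.0223, 23 cells) and Socs2 in the interferon stimulated cells of 564Igi mouse 34 (0.0294, others 0, 68 cells).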

How the results depend on the processing

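No member was called under any of 1021 alternatives over 61 values, the lowest adjusted p being 0.0431. Signs changed in 53, the largest such value being that of Pim1 in all cells (0.0623). Socs3 in all cells stayed between 0.0432 and 0.201 (adjusted p 0.281 to 1.0 in limma), Socs3 in TFR cells between 0.0431 and 0.198 and Socs1 in all cells between 0.0579 and 0.152. These upper ends come from counts per 10000, which is another unit. With 1 mouse left out the highest values were 0.0681, 0.0636 and 0.0914, respectively. Pim1 in all cells ran from -0.00445 (without 564Igi mouse 13) to 0.116 (counts per 10000), reached 0.0903 at most with 1 mouse left out, and was 0.0375 without WT mouse 36. With each clonotype weighted equally, Pim2 and Socs1 in expanded TFR cells became 0.0321 and 0.0306. Without shared barcodes Socs3, Socs1 and Pim1 in all cells were 0.0574, 0.0694 and 0.0628.

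Counts of called genes were as follows. Without the variance trend 0 genes were called in all cells, activated, TFR, Sostdc1, effector and interferon stimulated cells and in expanded Sostdc1 cells, 9 in expanded activated and 6 in expanded TFR cells. Without a filter there were 0 in activated, TFR and expanded Sostdc1 cells, 1 in Sostdc1, 8 in expanded activated and 6 in expanded TFR cells. At an adjusted p below 0.05 with no fold limit there were 7 in all cells, 4 in activated, 9 in TFR, 4 in Sostdc1, 3 in central memory and 6 in effector cells, 2 for TFR against activated, and 856, 314 and 3 in expanded activated, TFR and Sostdc1 cells. On counts per 10000 there were 2 in all, central memory and effector cells and for TFR against activated, and 118, 39 and 3 in expanded activated, TFR and Sostdc1 cells. Without mice 34 and 36 there were 6 in effector, 2 in interferon stimulated and 0 in expanded Sostdc1 cells. The sex covariate gave 2 in central memory and the heat shock covariate 2 in effector cells. Expanded clones of at least 2 cells gave 14, 4 and 0 in activated, TFR and Sostdc1 cells, those above 10 cells gave 0 in Sostdc1, and equal clonotype weight gave 11 in activated and 0 in Sostdc1 cells. The cause of these shifts was not tested. Leaving out 1 mouse gave 1 to 2 in all cells, 1 to 3 in activated, TFR, Sostdc1, effector and interferon stimulated cells, 0 to 9 in central memory cells, 0 to 5 for TFR against activated and 0 to 1 in expanded Sostdc1 cells. No paired analysis was possible because the WT and 564Igi chimeras are different mice that share no number in the labels. Most cells with a member held a single UMI, and 5 mice a side limit the size of difference that can be seen.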
